A study of Saccharomyces cerevisiae with 4 samples.

Results

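The UTP, NOP, RRP, NOC and NSA genes of budding yeast encode nucleolar proteins that process and fold ribosomal RNA. They were chosen by name: protein-coding genes whose standard name is one of these prefixes followed by a number. This gave 58 genes of 7071 in the tables, of which 5988 are protein-coding. The UTP and RRP families had 18 genes each, NOP had 17, NOC had 3 and NSA had 2. The genes lie on 14 chromosomes, 27 of them on the W strand, and each has 1 coding exon. Among the 6006 of the 7071 genes that were matched to RefSeq, no other gene overlaps any of them.

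RNA was measured by sequencing in wild-type Saccharomyces cerevisiae of strain CB67, which is of W303 origin. All cells were held in G2/M with benomyl, a drug that depolymerises microtubules, at 80 µg/ml for 90 min. Thiolutin, an inhibitor of yeast RNA polymerases, was then present at 20 µg/ml for 30 min in 2 libraries, and 2 libraries were given DMSO. The question was how RNA levels differ once transcription is inhibited in arrested cells, and for these genes whether the small-subunit UTP genes differ from the other families. The libraries carry the letters a and b, and no label says that these came from separate cultures, so p-values measure the spread between these libraries, which may be technical. In bulk RNA, fewer cells and less RNA per cell cannot be told apart.

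Ribosome assembly begins in the nucleolus, where the long precursor rRNA is bound as it is made. The small-subunit processome, built from the UTP-A, UTP-B and UTP-C subcomplexes, the U3 snoRNA and further factors, folds and cleaves the first part of the precursor. Other factors assemble the large subunit, snoRNPs modify the rRNA, and the exosome trims and degrades its spacers. In growing yeast these genes are co-regulated, and many carry a pair of promoter motifs named PAC and RRPE, bound by the repressors Dot6 and Tod6 and by Stb3.

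The promoters were read from the R64 genome, and the window searched was the 250 bases before each coding start. PAC was searched as GATGAG and RRPE as AAAATTT, on both strands. Their letters do not overlap each other, but 2 RRPE matches on opposite strands can share bases. PAC was present in 47 of the 58 members (81.0%), against 1021 of 5987 windows of all protein-coding genes (17.1%). RRPE was present in 51 members (87.9%), against 1298 of all windows (21.7%). Both were in 41 members (70.7%), against 397 of all windows (6.63%). All 18 UTP windows held RRPE and 14 held PAC. Of 138 ribosomal protein genes, 14 held PAC and 38 held RRPE. A match is a stretch of letters, not a measured binding site.

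**Figure D1:**
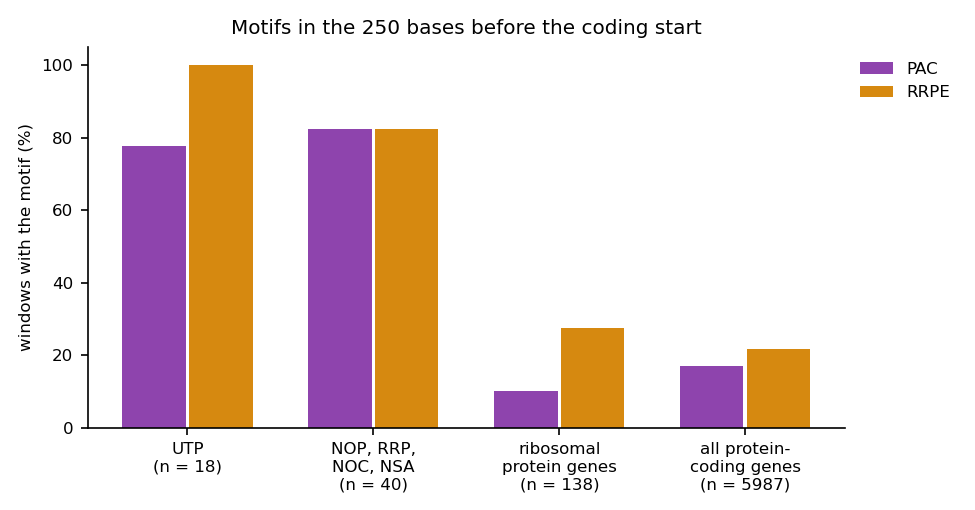
Share of promoter windows (vertical axis, %) that hold PAC or RRPE in UTP genes, the other members, ribosomal protein genes and all protein-coding genes. Members of both kinds stand above the ribosomal protein genes and above all protein-coding genes for both motifs.

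The windows below belong to the genes whose values the results turn on, plus 1 with no match. Each gives the 200 bases that start 250 bases before the coding start, 5′ to 3′ on the gene's strand, with PAC and RRPE matches of either strand in capitals. UTP9 (chrVIII:491681-491880, plus strand) is the UTP gene that was lower with thiolutin. UTP13 (chrXII:581822-582021, minus), NOP7 (chrVII:695167-695366, plus) and NOP9 (chrX:419613-419812, minus) were higher. NOP19 (chrVII:995389-995588, plus) had the lowest fold change, and RRP45 (chrIV:1020497-1020696, plus) has neither motif. The sequences are RefSeq R64.
UTP9: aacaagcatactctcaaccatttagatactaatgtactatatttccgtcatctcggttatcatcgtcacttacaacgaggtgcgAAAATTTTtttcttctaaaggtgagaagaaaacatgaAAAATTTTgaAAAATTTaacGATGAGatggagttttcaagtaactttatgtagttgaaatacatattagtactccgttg
UTP13: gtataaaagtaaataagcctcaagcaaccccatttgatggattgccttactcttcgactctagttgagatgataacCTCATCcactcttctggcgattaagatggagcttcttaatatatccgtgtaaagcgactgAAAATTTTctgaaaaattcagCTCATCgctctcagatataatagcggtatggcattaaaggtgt
NOP7: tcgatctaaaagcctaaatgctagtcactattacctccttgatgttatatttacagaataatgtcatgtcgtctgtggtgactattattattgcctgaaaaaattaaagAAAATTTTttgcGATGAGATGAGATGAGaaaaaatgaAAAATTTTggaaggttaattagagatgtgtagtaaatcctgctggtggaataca
NOP9: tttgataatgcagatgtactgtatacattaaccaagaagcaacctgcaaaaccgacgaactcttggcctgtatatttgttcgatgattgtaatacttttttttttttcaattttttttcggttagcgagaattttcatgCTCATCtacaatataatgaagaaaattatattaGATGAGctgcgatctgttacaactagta
NOP19: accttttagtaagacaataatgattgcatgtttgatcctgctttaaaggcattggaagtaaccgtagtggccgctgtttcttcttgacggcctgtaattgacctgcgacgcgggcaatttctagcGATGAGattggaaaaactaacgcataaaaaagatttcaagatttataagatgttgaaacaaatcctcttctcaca
RRP45: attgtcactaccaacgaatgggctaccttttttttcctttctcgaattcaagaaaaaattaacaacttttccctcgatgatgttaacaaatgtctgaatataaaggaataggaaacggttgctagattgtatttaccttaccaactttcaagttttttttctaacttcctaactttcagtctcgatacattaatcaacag
NOP7 held 3 overlapping PAC matches next to RRPE, whereas NOP9 and NOP19 held PAC alone. UTP9, which was lower, and UTP13, which was higher, both carried the pair. The median log2 fold change, thiolutin over DMSO, was 0.26 over the 41 members with both motifs, 0.09 over the 6 with PAC alone and 0.17 over the 10 with RRPE alone. Over all tested protein-coding genes, the members included, it was 0.11 for the 387 with both and -0.06 for those with neither. For the 523 with PAC alone it was -0.05, and for the 818 with RRPE alone it was -0.02. These are descriptions without a test.

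The libraries held 38613462 and 11598766 expected counts with thiolutin and 27262771 and 48045781 with DMSO. Protein-coding genes took 6.56 and 8.12% of these in the thiolutin libraries, against 11.8 and 11.2% in the DMSO libraries. The members had a median of 204 and 101 counts in the thiolutin libraries and of 353 and 574 in the DMSO libraries, so that thiolutin b was the shallowest. Their share of protein-coding counts was 0.759 and 0.912% with thiolutin and 0.814 and 0.798% with DMSO, and the groups overlapped. UTP genes took 24.3 and 27.7% of the members' counts with thiolutin, against 28.3 and 29.2% with DMSO. Below, values per library are normalised counts, scaled between libraries by TMM, which assumes that most genes do not change. They are not corrected for gene length.

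All 58 members passed the filter on low counts, out of 5527 genes tested. By edgeR's quasi-likelihood test, 16 members were higher with thiolutin and 3 lower at a threshold of 0.05 on the Benjamini-Hochberg adjusted p, and 39 were not called. These are changes relative to other genes on the TMM scale, and on the S. pombe spike-in scale given below no member was higher. Of all genes tested, 18.5% were called higher and 17.6% lower, against 27.6% and 5.17% of the members. The study used edgeR with a threshold of 1e-05 and did not say which of its tests was run. At that threshold in the quasi-likelihood test no member was called in either direction on the TMM scale. Of all genes 0.796% were higher and 0.199% lower there. At an unadjusted p under 0.05 in the same test, 23 members were higher and 5 lower. Both thiolutin libraries lay above both DMSO libraries in 27 members and below them in 10, against 33.2% and 36.7% of all genes. The median log2 fold change of the members was 0.21, with a range of -1.76 to 1.24, and that of all genes tested was -0.02. The count of higher calls moved with single libraries: it was 27 without thiolutin a, 14 without thiolutin b, 5 without DMSO a and 8 without DMSO b. NOP7, NOP9, NOP13 and UTP13 were called higher in all of these fits. RRP1 was the further call left without DMSO a, and UTP7, UTP14, NOC2 and NOP16 those left without DMSO b. The count of lower calls was 7 without thiolutin b, 3 without thiolutin a and 2 without either DMSO library.

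**Figure D2:**
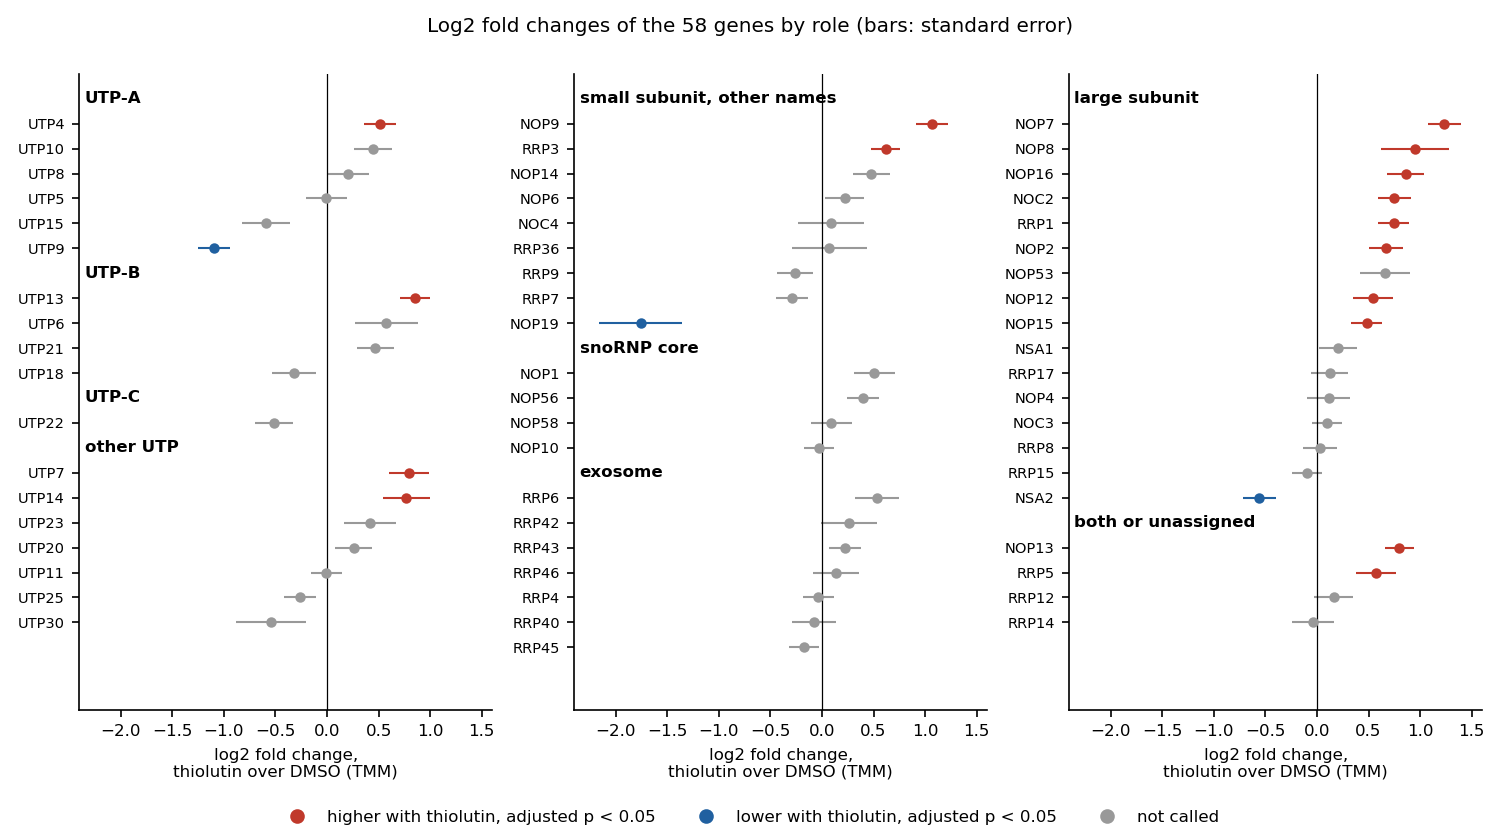
Log2 fold change of each of the 58 members, thiolutin over DMSO on the TMM scale (horizontal axis), with its standard error, ordered within roles. Red points were called higher, blue points lower and grey points not called; the 3 blue points are UTP9, NOP19 and NSA2, and 8 of the 16 red points are large-subunit factors. Of all genes tested, 18.5% were called higher and 17.6% lower on the TMM scale. No member was called higher on the S. pombe scale.

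UTP-A is the subcomplex that binds the precursor rRNA first, and its members did not move together. UTP9 had 254 and 294 normalised counts in thiolutin libraries, against 602 and 553 in DMSO libraries. The groups did not overlap, and its log2 fold change was -1.09 ± 0.16 (SE; edgeR adjusted p = 4.65e-04). UTP4, a WD-repeat protein of the same subcomplex, had 1036 and 1252 with thiolutin and 798 and 795 with DMSO. It rose by 0.51 ± 0.15 on the log2 scale (edgeR adjusted p = 0.0223). UTP10, a long scaffold protein, had 773 and 1130 with thiolutin against 689 and 688 with DMSO, and UTP15 had 104 and 162 against 169 and 207. Neither passed the test, with log2 fold changes of 0.45 ± 0.18 and -0.59 ± 0.23. UTP8 at 0.21 ± 0.20 and UTP5 at -0.01 ± 0.20 were not called either. Within this one subcomplex, UTP4 was thus called higher and UTP9 lower.

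UTP-B forms the next layer of the processome. UTP13 had 545 and 628 normalised counts with thiolutin, against 324 and 321 with DMSO, and rose by 0.85 ± 0.15 on the log2 scale (edgeR adjusted p = 0.00143). UTP21 and UTP6 had positive values that were not called, at 0.47 ± 0.18 and 0.57 ± 0.31. UTP18 had 111 and 162 with thiolutin and 158 and 166 with DMSO, at -0.32 ± 0.21. UTP22 is the one UTP-named member placed in UTP-C here. It had 267 and 396 with thiolutin against 459 and 455 with DMSO. These did not overlap, but at -0.51 ± 0.19 it lay just outside the threshold (edgeR adjusted p = 0.0510).

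Among the remaining UTP genes, UTP7 and UTP14 were called. UTP7, a WD-repeat processome protein, had 215 and 261 with thiolutin and 119 and 149 with DMSO, and rose by 0.79 ± 0.20 on the log2 scale (edgeR adjusted p = 0.00919). UTP14, which activates the helicase that removes U3, had 228 and 374 with thiolutin and 154 and 183 with DMSO. Its rise was 0.77 ± 0.23 (edgeR adjusted p = 0.0224). Leaving out thiolutin b ended the call of UTP14. UTP20, UTP23, UTP11, UTP25 and UTP30 lay between -0.54 and 0.42 and were not called.

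Small-subunit factors with other family names held the highest fold change among small-subunit members, NOP9, and the lowest, NOP19. NOP9, an RNA-binding protein of small-subunit precursors, had 458 and 543 with thiolutin, against 243 and 230 with DMSO. It rose by 1.07 ± 0.16 on the log2 scale (edgeR adjusted p = 5.16e-04). RRP3, a DEAD-box helicase, had 1085 and 1127 with thiolutin and 733 and 708 with DMSO, at 0.62 ± 0.14. At the other end NOP19 had 15.5 and 22.0 with thiolutin and 47.8 and 70.0 with DMSO, which rests on 11 and 6 raw counts in the thiolutin libraries. It fell by 1.76 ± 0.40 on the log2 scale (edgeR adjusted p = 0.00596), and was no longer called without DMSO b. RRP36 and NOC4 split the thiolutin libraries: RRP36 had 50.6 in a and 121 in b, and NOC4 had 80.1 in a and 169 in b. Their DMSO values were 84.1 and 63.1 for RRP36 and 126 and 90.1 for NOC4, inside the range of the thiolutin libraries.

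Of the snoRNP core proteins none was called. NOP1, the methyltransferase of box C/D particles, had 163 and 162 with thiolutin and 101 and 126 with DMSO. Its log2 fold change was 0.51 ± 0.20 (edgeR adjusted p = 0.0700). NOP56, another box C/D protein, was at 0.40 ± 0.15 and its partner NOP58 at 0.09 ± 0.20. NOP10, of the box H/ACA particles, had 756 and 716 with thiolutin and 803 and 704 with DMSO. Per kilobase of the effective length deposited with the counts, not of coding length, NOP10 stood at a mean of 6542 normalised counts with thiolutin and 6695 with DMSO. NOP56 stood at 2021 and 1537.

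Large-subunit factors had 8 of 16 members called higher and NSA2 lower on the TMM scale. On that scale 18.5% of all genes tested were called higher and 17.6% lower. The 51 large-subunit factors with other names had 13 higher (25.5%) and 10 lower (19.6%). The median log2 fold change of the 16 members was 0.51, against -0.42 on the S. pombe scale. NOP7, the yeast pescadillo protein needed for large-subunit rRNA processing, had 2392 and 2925 with thiolutin, against 1157 and 1097 with DMSO. It rose by 1.24 ± 0.16 on the log2 scale (edgeR adjusted p = 2.17e-04), the highest fold change among the members. NOP16 had 260 and 261 with thiolutin and 130 and 155 with DMSO, at 0.86 ± 0.18. NOC2, part of a nucleolar export complex, had 693 and 866 with thiolutin and 429 and 486 with DMSO, at 0.75 ± 0.16. RRP1 at 0.74 ± 0.15 and NOP2, an rRNA methyltransferase, at 0.67 ± 0.16 also had groups that did not overlap.

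NOP8, NOP12 and NOP15 were called closer to the threshold. NOP8 had 59.0 and 103 with thiolutin and 43.4 and 35.5 with DMSO, at 0.95 ± 0.33 (edgeR adjusted p = 0.0439). The calls of NOP8 and NOP12 were also lost without thiolutin b, and those of NOP8, NOP12 and NOP15 were not made by DESeq2. NOP53, which docks the exosome on large-subunit precursors, had 201 and 367 with thiolutin and 172 and 169 with DMSO and lay just outside (0.66 ± 0.24; edgeR adjusted p = 0.0541). NSA2, a factor of large-subunit precursors, had 502 and 451 with thiolutin, against 781 and 637 with DMSO. It fell by 0.56 ± 0.16 on the log2 scale (edgeR adjusted p = 0.0191), and the call was lost without DMSO a.

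RRP5 acts on both subunits. It had 1678 and 2620 with thiolutin, against 1440 and 1428 with DMSO, at 0.57 ± 0.20 (edgeR adjusted p = 0.0419), which was not called without thiolutin b. NOP13, a nucleolar RNA-binding protein, had 829 and 837 with thiolutin and 471 and 488 with DMSO. The replicates lay close together in both groups, and it rose by 0.80 ± 0.14 on the log2 scale (edgeR adjusted p = 0.00152). RRP12 and RRP14 were not called, at 0.16 ± 0.19 and -0.04 ± 0.21.

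The 7 exosome subunits with RRP names had no call in either direction and a median of 0.14. Of all genes tested 18.5% were called higher and 17.6% lower, and 7 genes are few to set beside these shares. Among 7 exosome genes and cofactors with other names, 3 were higher and the median was 0.43. RRP6, the nuclear exonuclease, had 115 and 132 with thiolutin and 87.6 and 81.1 with DMSO, at 0.53 ± 0.21 (edgeR adjusted p = 0.0752). RRP45, of the ring of the complex, had 479 and 481 with thiolutin and 558 and 525 with DMSO, at -0.17 ± 0.14. RRP40 begins 1005 bases past the end of NOP8 on the same strand of chromosome XV. It had 135 and 95.4 with thiolutin and 129 and 125 with DMSO, at -0.08 ± 0.21, and so was not called where NOP8 was.

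**Figure D3:**
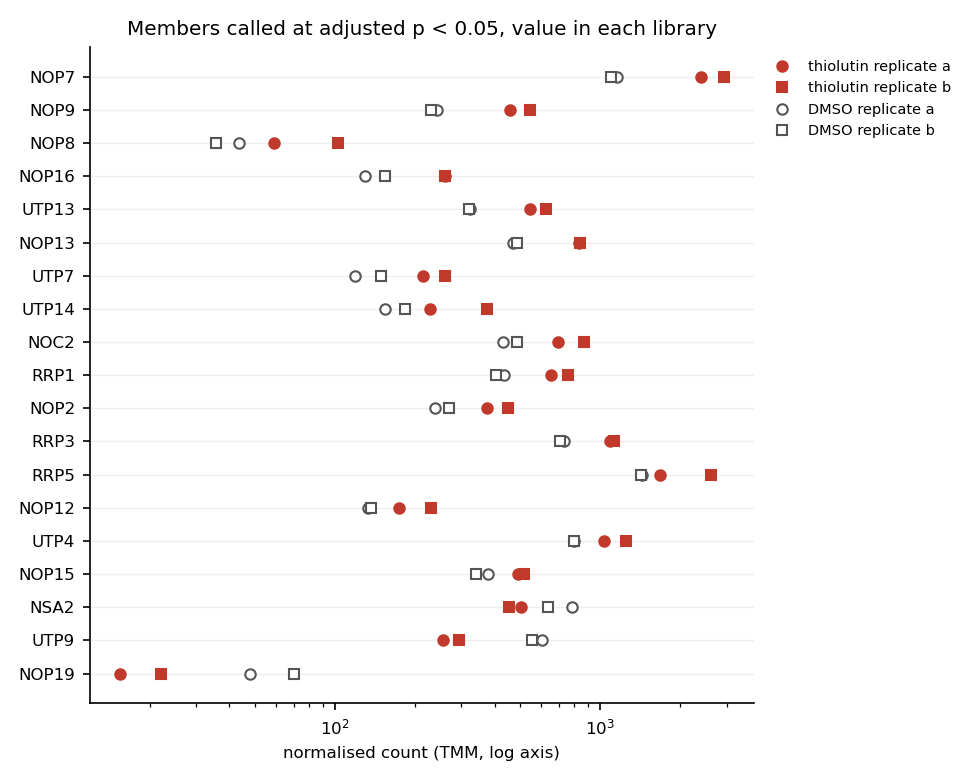
Normalised counts (TMM, log axis) of the 19 called members in each library, with filled symbols for thiolutin and open symbols for DMSO. In every row the thiolutin symbols lie on one side of the DMSO symbols. The rows were picked by calls from these same libraries, so this separation is no further evidence. Of all genes tested, 33.2% had both thiolutin libraries above both DMSO libraries and 36.7% below. The bottom 3 rows, NSA2, UTP9 and NOP19, have thiolutin on the low side. The 16 higher calls hold on the TMM scale and not on the S. pombe scale.

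The UTP genes and the other members pooled had medians close to each other, while the single families differed. Of the 18 UTP genes 4 were higher (UTP4, UTP7, UTP13 and UTP14, 22.2%) and 1 lower (5.56%), with a median log2 fold change of 0.23. Of the 40 other members 12 were higher (30.0%) and 2 lower (5%), with a median of 0.21. Among all genes tested 18.5% were higher and 17.6% lower. The lower calls among UTP genes depended on the setting. UTP15 and UTP22 joined UTP9 with the likelihood ratio test, with a mean of at least 50 counts, with no filter and with protein-coding genes alone. That made 3 of the 18 UTP genes and 2 of the 40 other members. Without thiolutin b the lower calls were 4 UTP genes, UTP18 being the further one, and 3 other members. The difference of medians was 0.02, and between the libraries of one letter it was -0.18 for a and -0.03 for b. Leaving out DMSO a or thiolutin b also turned it negative, at -0.14 and -0.19. Grouped by role instead, the 27 small-subunit factors (UTP genes and others) had a median of 0.21 with 6 higher (22.2%) and 2 lower (7.41%). The median was 0.51 over the 16 large-subunit factors. The order was the reverse among ribosome biogenesis genes with other names, at 0.31 over 40 small-subunit and 0.21 over 51 large-subunit factors. By family, the median was 0.51 for NOP with 8 of 17 genes higher (47.1%), and 0.10 for RRP with 3 of 18 higher (16.7%) and none lower. It was 0.10 over the 3 NOC genes and -0.18 over the 2 NSA genes. The UTP and RRP shares of higher calls are near that of all genes. None of these differences between groups of genes was tested.

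The replicate letters differed with gene length. In thiolutin b over thiolutin a, the median log2 ratio was 0.49 over the 16 members of at least 2000 bases, all of which were above 0, and -0.01 over the 19 members under 1000 bases. In DMSO b over DMSO a the medians were -0.0037 and -0.07. Over the 58 members the thiolutin ratio followed length with a Spearman's rho of 0.47, across genes of the same libraries, which are not independent replicates. Over 5270 protein-coding genes it was 0.29. For DMSO b over a it was 0.23 in the members and 0.14 over those genes. Of 1284 protein-coding genes of at least 2000 bases, 843 were above 0 in the thiolutin ratio. UTP genes had a median length of 2037 bases, against 1258.5 for the other members, though UTP11, UTP23 and UTP30 are under 1000 bases. The median log2 difference of the UTP genes was 0.02 between the a libraries and 0.44 between the b libraries. The part of length in the calls was not tested.

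**Figure D4:**
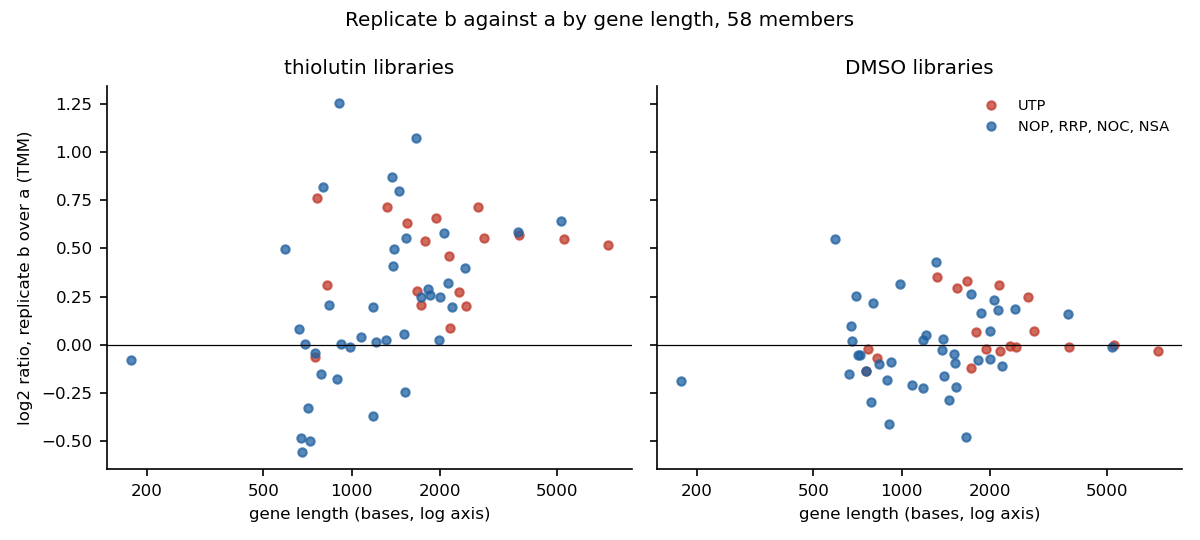
Log2 ratio of replicate b over a (vertical axis) against gene length in bases (log axis) for the 58 members, in thiolutin libraries on the left and DMSO libraries on the right, with UTP genes in red. Every member of at least 2000 bases lies above 0 in the thiolutin libraries.

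A fixed amount of Schizosaccharomyces pombe cells was added to each sample before extraction, and with library sizes set to the S. pombe read numbers the direction turned. On that scale no member was called higher by edgeR (0 also at an unadjusted p under 0.05, where 22 were lower) and 18 were lower, that is 31.0% of members against 50.7% of all genes tested, while 1.47% of all genes were called higher. The median log2 fold change of the members was -0.69, and that of all genes was -1.01. The scale moved the median gene by -0.99 against TMM. Of the members 55 had negative values and 3 positive ones, NOP7 at 0.32 ± 0.42, NOP9 at 0.15 ± 0.43 and NOP8 at 0.02 ± 0.45. The 16 higher calls of the TMM scale are therefore calls relative to other genes. UTP9 was at -2.03 ± 0.45 (edgeR adjusted p = 6.94e-05) and NOP19 at -2.80 ± 0.52 (edgeR adjusted p = 1.49e-06). NOP19 alone among the members was under 1e-05 on this scale, beside 6.08% of all genes called lower. In S. pombe-scaled counts UTP9 had 134 and 246 with thiolutin, against 818 and 698 with DMSO.

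The 18 lower calls included 7 UTP genes (UTP9, UTP11, UTP15, UTP18, UTP22, UTP25 and UTP30), 8 RRP genes, NOP10, NOP19 and NSA2. The median of the UTP genes was -0.65 and that of the other members -0.71. The letters disagreed in size on this scale, with a median difference of the members of -1.20 between the a libraries and -0.12 between the b libraries. The count of 18 rested on single libraries: it was 56 without thiolutin b, 21 without thiolutin a, 1 without DMSO a and 0 without DMSO b. An error in the spike-in scale of a library shifts all its genes together.

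**Figure D5:**
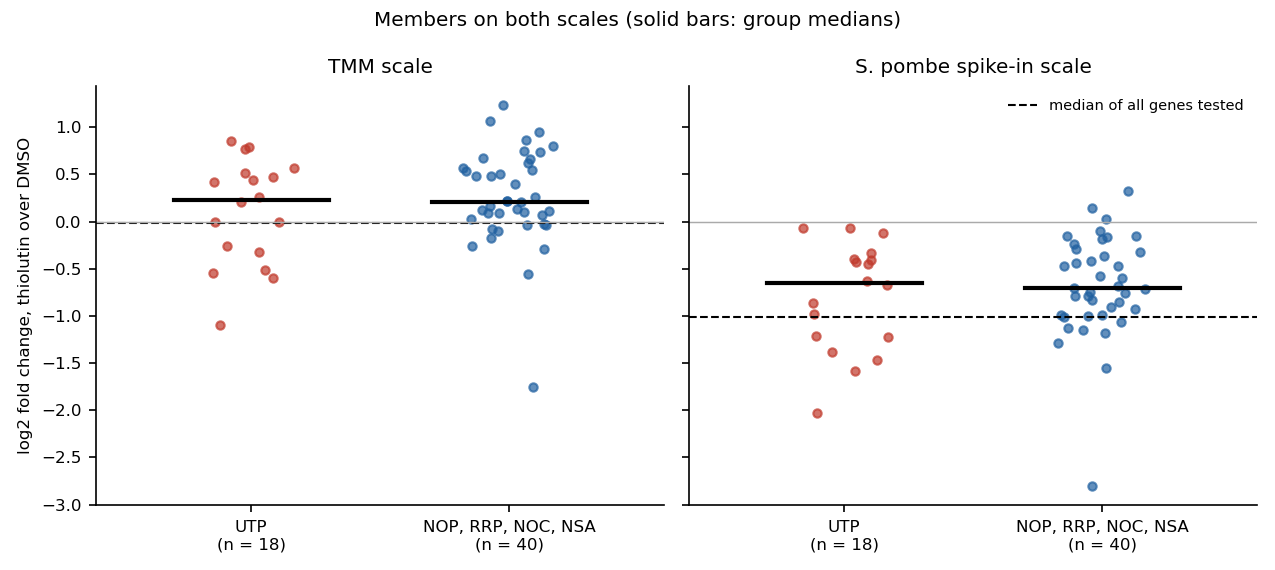
Log2 fold change of each UTP gene and each other member, thiolutin over DMSO, on the TMM scale (left) and the S. pombe scale (right), with group medians as solid bars and the median of all genes tested as a dashed line. On the left both group medians, 0.23 and 0.21, lie above 0; on the right they are -0.65 and -0.71, above the dashed line at -1.01.

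Ribosome biogenesis genes with other names were taken from lists written from their textbook roles, of which 116 of 118 symbols were found. Of 40 small-subunit factors 17 were higher (42.5%) and 6 lower (15.0%) on the TMM scale, beside 18.5% and 17.6% of all genes. Their median was 0.31. On the S. pombe scale 0 of them were higher and 16 lower (40.0%), beside 50.7% lower among all genes. KRE33, the acetyltransferase of small-subunit rRNA, had 415 and 393 with thiolutin and 176 and 174 with DMSO, at 1.21 ± 0.16. RCL1, a processome factor, had 131 and 106 with thiolutin and 635 and 632 with DMSO, and fell by 2.38 ± 0.17 on the log2 scale (edgeR adjusted p = 3.40e-06), past every member. Of 51 large-subunit factors 13 were higher (25.5%) and 10 lower (19.6%), with a median of 0.21, beside 18.5% and 17.6% of all genes. Their values lay between ALB1 at -2.25 ± 0.24 and MAK11 at 1.11 ± 0.17, and on the S. pombe scale 0 were higher and 19 lower (37.3%). Of 10 further genes listed with the snoRNPs, 2 were higher (20.0%), CBF5 at 0.69 ± 0.16 among them. In that list 4 were lower (40.0%, beside 17.6% of all genes), down to NAF1, an assembly factor, at -1.02 ± 0.30. These 4 include NSR1, at -0.54 ± 0.19, which was listed here by hand and is not counted as a particle protein. The calls of CBF5 and NAF1 were lost without either DMSO library. Of 7 exosome genes and cofactors 3 were higher (42.9%, beside 18.5% of all genes), up to MTR4, its helicase, at 1.09 ± 0.17. None of the 7 was lower at 0.05 (0 also at an unadjusted p under 0.05, edgeR). Ribosomal protein genes, 138 in all, had 29 higher (21.0%, near the share of all genes), 6 lower and a median of 0.15. On the S. pombe scale no gene of the snoRNP, exosome and ribosomal protein lists was called higher. In these lists 7 (70.0%), 1 (14.3%) and 64 (46.4%) were lower, beside 50.7% of all genes. For these and the subunit lists, 0 were higher at an unadjusted p under 0.05 in edgeR as well.

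The list of regulators covers those of ribosome biogenesis genes and of ribosomal protein genes. Of the 7 tested, 3 fell in edgeR's test on the TMM scale (42.9%, beside 17.6% of all genes). None rose in that test, nor was any higher at an unadjusted p under 0.05. On the S. pombe scale 6 of the 7 fell, beside 50.7% of all genes, with a median of -1.65. FHL1, a forkhead-like factor at ribosomal protein genes, had 59.0 and 55.1 with thiolutin and 164 and 147 with DMSO. It fell by 1.43 ± 0.22 on the log2 scale (edgeR adjusted p = 7.89e-04). SCH9, a growth kinase, was at -1.38 ± 0.36 and SFP1, an activator of ribosome biogenesis genes, at -1.20 ± 0.36, both called. These 2 calls were lost without either DMSO library and with DESeq2, and that of SFP1 also without thiolutin a. DOT6, TOD6, IFH1 and STB3 were not called on the TMM scale, at -0.55, -0.28, -0.08 and 0.00. On the S. pombe scale DOT6 (-1.65), TOD6 (-1.13) and IFH1 (-0.99) were called lower and STB3 (-1.14) was not. STB3 had 12.6 and 3.67 with thiolutin and 11.5 and 8.48 with DMSO, too few counts to show a moderate difference at this depth. CRF1 had too few counts to be tested.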

How the data were processed

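Total RNA depleted of large rRNA was sequenced from 4 libraries. The authors mapped stranded reads with STAR 2.7.3a to sacCer3 and deposited expected counts per gene from RSEM 1.3.1, which divides reads that map to several genes. Bowtie 1.2.2 is also named in the submitters' processing notes. The effective length deposited with them, averaged over the libraries, was used for the values per kilobase. Deposited TPM and FPKM values were not used. Expected counts were rounded to whole numbers. Genes were kept by filterByExpr, scaled by TMM and compared by edgeR 4.0.16 (quasi-likelihood, R 4.3.3), with Benjamini-Hochberg adjustment over 5527 genes. Standard errors came from the F statistic, as the absolute log2 fold change over its square root. The code was tested on simulated data. All 58 members have the same length in the files and in R64. Chi-square tests of the protein-coding counts of replicates gave 6.41 (thiolutin) and 4.45 (DMSO) for each degree of freedom, so none was a duplicate.

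The members and lists were chosen with earlier results of these data known. Genes named are all UTP genes, the extremes of each role, the snoRNP core, the regulators and the extremes of each further list. Other called members, NOP53, RRP12, RRP36, RRP40 and NOC4 were named after their values were seen. Alternatives were DESeq2 1.42.0 (test and size factors), the S. pombe scale, a likelihood ratio test, other filters, protein-coding genes alone, a replicate block and leaving out each library. The study's S. pombe read numbers were read from its supplement and set as library sizes.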

Additional observations from a re-analysis of the deposited data

How the results depend on the processing

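The 4 members NOP7, NOP9, NOP13 and UTP13 were called higher under each of the 12 settings on TMM or size-factor scales at 0.05, and UTP9 was called lower under these and on the S. pombe scale with all libraries. The count of lower members was 3 and became 5 with the likelihood ratio test, a mean of at least 50 counts, no filter or protein-coding genes alone (UTP15 and UTP22 added each time), 18 on the S. pombe scale, 0 at 1e-05, and 2 to 7 when 1 library was left out. The count of higher members was 16, became 0 on the S. pombe scale and at 1e-05, ranged over 5 to 27 when 1 library was left out, and was 13 to 22 otherwise. The median of the members was 0.21, became -0.69 on the S. pombe scale and ranged over 0.091 to 0.46 when 1 library was left out. The difference between UTP genes and the others was 0.02, ranged over -0.19 to 0.087 when 1 library was left out. In its place, the 27 small-subunit factors minus the 16 large-subunit factors, which leaves out the other roles, gave -0.31. Among the factors with other names the order was the reverse, with medians of 0.31 for the small and 0.21 for the large subunit. The causes were not tested.

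On the S. pombe scale values turned negative for UTP20 (-0.63), UTP23 (-0.45), UTP14 (-0.073), UTP7 (-0.12), UTP8 (-0.68), UTP10 (-0.43), UTP4 (-0.40), UTP21 (-0.40), UTP6 (-0.33), UTP13 (-0.074), NOP58 (-0.79), NOP56 (-0.58), NOP1 (-0.47), NOP13 (-0.15), RRP6 (-0.44), RRP5 (-0.30), NOP15 (-0.47), NOP12 (-0.37), NOP2 (-0.24), RRP1 (-0.18), NOC2 (-0.15), NOP16 (-0.10), RRP3 (-0.33), CBF5 (-0.21) and STB3 (-1.14). Values near 0 changed sign for UTP11 (0.020 with DESeq2, 0.021 with its size factors, 0.0013 with protein-coding genes), UTP5 (0.046 with DESeq2, 0.022 with its size factors, 0.0035 with the likelihood ratio test) and STB3 (-0.14 with DESeq2, -0.026 with no filter). With 1 library left out the ranges that crossed 0 were -0.074 to 0.060 for UTP11, -0.027 to 0.51 for UTP20, -0.34 to 0.34 for UTP5, -0.023 to 0.45 for UTP8, -0.12 to 0.067 for NOP10, -0.18 to 0.39 for NOP58, -0.23 to 0.20 for RRP14, -0.96 to 0.44 for TOD6, -0.30 to 0.21 for IFH1 and -1.38 to 0.36 for STB3.

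With the replicate letter as a block 4 members were lower and 20 higher, of which 3 and 15 were shared with the fit without it. RRP14 became 0.0061 and STB3 -0.22 under the block. Deviations of same-letter libraries had a correlation of 0.05 over all genes, so the letters were not shown to pair the samples. On the S. pombe scale, as alternatives added after seeing the data, the block left 4 lower members with a median of -0.76, and leaving out 1 library gave 0 to 56 lower members with medians of -1.20 to -0.18. In each fit without a library, the lone library of its group was assumed to vary like the others. The thiolutin b library limits depth, with 101 counts in the median member.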

Other observations

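The RNAs that work with these proteins were looked at after the members' values were seen. U3, the snoRNA of the processome, has a pair of gene copies that are nearly identical, so that reads may be divided between them. Its copy snR17a had 455911 and 344793 normalised counts with thiolutin, against 228018 and 192104 with DMSO, and rose by 0.93 ± 0.25 on the log2 scale (edgeR adjusted p = 0.0138). The other copy, snR17b, was at 0.94 ± 0.23, snR30 at 0.84 ± 0.22 and NME1, the RNA of RNase MRP, at 0.93 ± 0.21. Of 44 snR genes with a mean of at least 1000 counts, 41 were higher and 0 lower on the TMM scale (edgeR, with 43 and 0 at an unadjusted p under 0.05). Of all genes tested, 18.5% were higher and 17.6% lower on that scale, and 1.47% and 50.7% on the S. pombe scale. The TMM median of the 44 was 0.93, against 0.21 for the members. On the S. pombe scale that median was -0.06 and 0 of the 44 were called in either direction by edgeR (0 also at an unadjusted p under 0.05), whereas the median of the members was -0.69.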
